A study of Homo sapiens with 3 samples.

Results

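The Kruppel-like factors were followed through NAMPT inhibition in a human multiple myeloma cell line. The genes considered were KLF2, KLF3, KLF4, KLF6, KLF7, KLF9, KLF10, KLF11, KLF12 and KLF13. Their members on the array were taken as every probe set that the platform annotation assigns to exactly 1 gene symbol, that symbol being one of these 10. This gave 38 of the 54675 probe sets on the array. A probe set is a group of short oligonucleotides that together report 1 transcript or a part of it, and different probe sets of a gene can cover different transcript ends.

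The cells were MM1S, an established myeloma line, grown in RPMI-1640 medium with serum. Untreated cells (labelled as 0 h), cells with 10 nM FK866 for 6 h and cells with 10 nM FK866 for 24 h each gave 1 Affymetrix array. FK866 inhibits NAMPT, the enzyme that recycles nicotinamide into NAD. With 1 array per group no test was possible and no difference has a replicate check; 3 arrays set the limit on precision throughout. There are 0 untreated arrays at a treated time here, so the compound and time in culture cannot be told apart, and both comparisons with untreated cells share 1 array.

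Kruppel-like factors are zinc finger transcription factors that bind GC-rich and CACCC elements through a conserved C-terminal domain, much as the related SP proteins do. They differ in the N-terminal part, which decides the partners they recruit. KLF3 and KLF12 bind the corepressor CTBP. KLF9, KLF10, KLF11 and KLF13 bind SIN3A, which brings histone deacetylases. KLF2, KLF4, KLF6 and KLF7 are best known as activators, although KLF4 can also repress. In lymphocytes KLF2 and KLF4 are associated with quiescence, and KLF2 governs trafficking receptors.

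Promoter sequences are shown for KLF4, KLF11 and KLF2. KLF4 and KLF11 were the only members that passed 2-fold against untreated cells by their brightest probe set. The KLF2 promoter is known for its MEF2 element. RefSeq windows were matched by symbol for 8 of the 10 genes and not for KLF3 and KLF10. Each line gives 250 bases that end just before an annotated transcription start, on the gene's strand, in build GRCh38.p14. The KLF11 window is the second of 2 annotated for that gene. Capitals mark the words searched on both strands: the GC box GGGCGG, the CACCC box, the short form TGACG of the cAMP response element, its full form TGACGTCA, and the 10-base consensus of MEF2 factors.
KLF4, chr9:107489770-107490019, minus strand: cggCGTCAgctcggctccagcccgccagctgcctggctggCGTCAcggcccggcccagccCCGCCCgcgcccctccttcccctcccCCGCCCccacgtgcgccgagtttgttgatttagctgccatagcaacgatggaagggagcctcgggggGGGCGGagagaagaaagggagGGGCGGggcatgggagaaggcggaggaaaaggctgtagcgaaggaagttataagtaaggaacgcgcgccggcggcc
KLF11, chr2:10043971-10044220, plus strand: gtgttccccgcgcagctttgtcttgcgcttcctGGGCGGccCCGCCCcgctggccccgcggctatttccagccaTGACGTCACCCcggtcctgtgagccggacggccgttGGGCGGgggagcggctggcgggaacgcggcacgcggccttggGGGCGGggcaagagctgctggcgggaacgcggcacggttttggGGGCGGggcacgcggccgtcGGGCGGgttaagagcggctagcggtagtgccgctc
KLF2, chr19:16324576-16324825, plus strand: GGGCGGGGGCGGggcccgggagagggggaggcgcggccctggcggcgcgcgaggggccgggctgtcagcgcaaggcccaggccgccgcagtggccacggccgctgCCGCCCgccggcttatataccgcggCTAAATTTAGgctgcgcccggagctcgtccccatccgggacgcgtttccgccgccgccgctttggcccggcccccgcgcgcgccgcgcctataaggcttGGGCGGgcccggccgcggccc

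The GC box, the element that KLF and SP proteins bind, occurred 4 times in the KLF4 window, 6 times in the KLF11 window and 4 times in the KLF2 window. At least 1 GC box was found in 42.6% of 35116 RefSeq windows of this length, several of which can belong to 1 gene. The KLF11 window held 1 full cAMP response element, starting 176 bases before the start site, a word found in 1.65% of the windows. A CACCC match starting 170 bases before the start site shares its first letters with this element, and CACCC occurred in 54.7% of the windows. The KLF4 window held the short form 2 times and the full form 0 times, and the short form occurred in 21.2% of the windows. The KLF2 window held the MEF2 consensus 1 time, starting 120 bases before the start site, and 2.8% of the windows held it. Among the members this was not particular to KLF2, because the first KLF12 window, not printed, also held it 1 time. These matches describe letters and are not measured binding.

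Signals in the deposited table are linear and in arbitrary units. Values under 16 were set to this floor before log2 values were taken, because low signals have no dependable order. Of the 38 probe sets, 28 passed a filter on level (a mean log2 value no lower than the array-wide median, which equals a signal of 19.1), and each of the 10 genes had at least 1. The kept probe set that was brightest on average gives a gene its value and is called its main probe set. The same filter left 11883 genes on the array, called all genes below. Their median difference from untreated cells was -0.10 on the log2 scale at 6 h and -0.13 at 24 h, against 0.03 and 0.05 after quantile normalization and 0.13 and 0.12 after centring on array medians. The kept probe sets of a gene differed among themselves by a pooled SD of 0.38 in each of these comparisons, which covers probe error and transcript forms and not variation between cultures.

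The labelled cell type was checked against markers. All 8 plasma cell markers were measured, among them the surface receptor TNFRSF17 (signals of 7660, 9013 and 8060 in the untreated, 6 h and 24 h arrays) and the syndecan SDC1 (1717, 1578 and 1817). Of 4 T cell and 3 B cell markers, 0 passed the filter. Of 3 NK cell, 5 myeloid and 5 stroma markers, 1, 2 and 1 passed. By their main probe sets the highest signal was 69.2, that of COL1A1 at 24 h. The 2 kept COL1A1 probe sets disagreed, with log2 differences of 0.52 for the main one and -2.39 for the other at 24 h. The highest signal therefore does not cover the other kept probe sets.

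**Figure D1:**
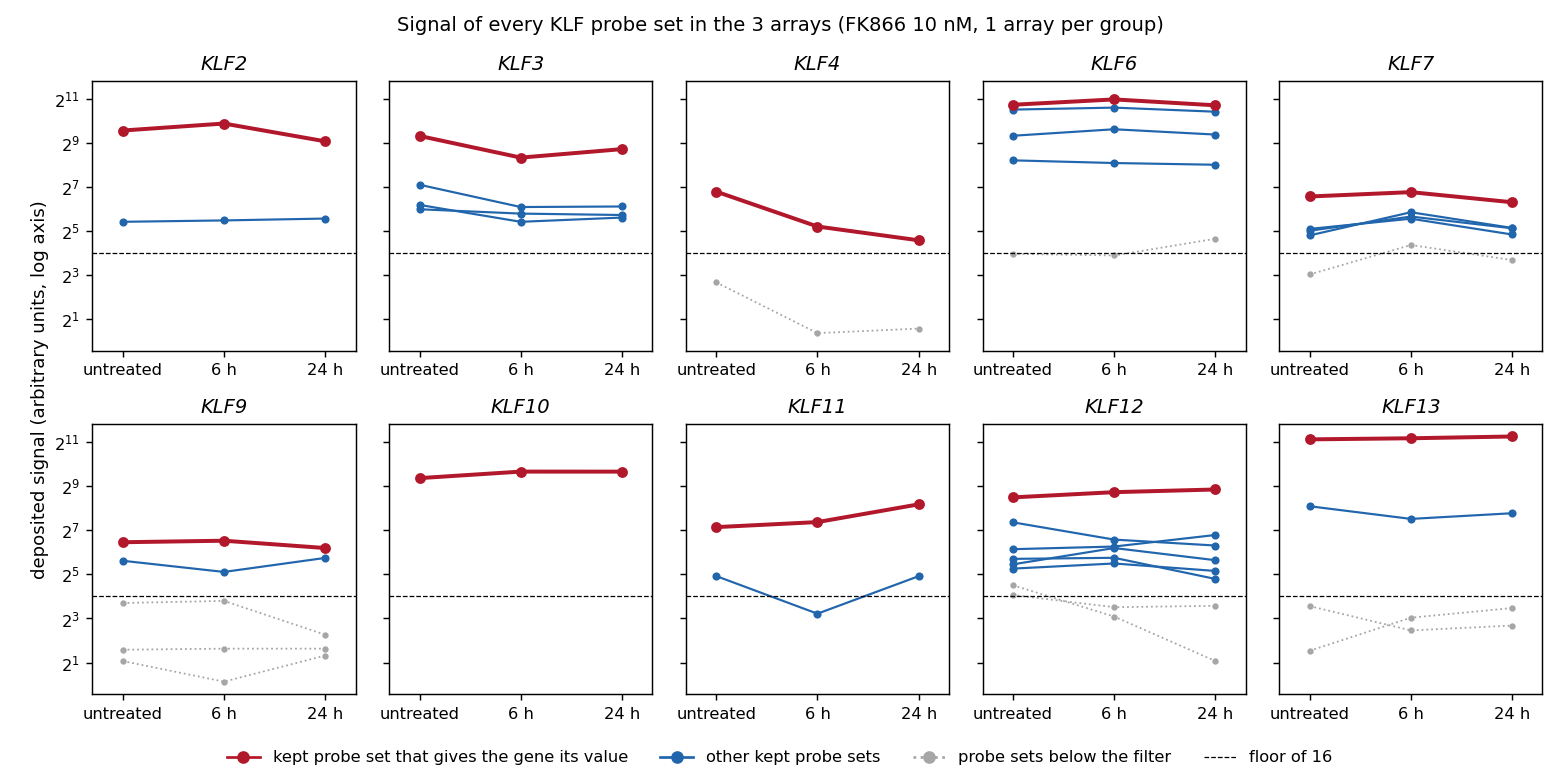
Deposited signal (log axis, arbitrary units) of all 38 KLF probe sets in the untreated, 6 h and 24 h arrays, 1 panel per gene. Red lines are the probe sets that give each gene its value, blue lines other kept probe sets, and dotted lines probe sets below the filter; KLF4 steps down to 37.0 and 24.0, and the upper KLF11 line reaches 288 at 24 h.

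By the main probe sets, KLF4 was lower at both times, KLF3 was just short of 2-fold lower at 6 h, and KLF11 was higher at 24 h. The other 7 genes stayed within 1.5-fold of untreated cells by these probe sets. Some other kept probe sets of KLF7 and KLF12 went past 1.5-fold. At 6 h, 1 of 10 genes (KLF4) was at least 2-fold lower, beside 3.32% of all genes, and 0 of 10 at least 2-fold higher, beside 1.44%. At 24 h, 1 of 10 (KLF4) was at least 2-fold lower, beside 4.17%, and 1 of 10 (KLF11) at least 2-fold higher, beside 1.14%. With 10 genes, 1 gene is already 10%, so these shares are coarse. At 1.5-fold, KLF3 joined KLF4 at both times, making 2 of 10 lower beside 11.3% of all genes at 6 h and 14.1% at 24 h. At this size 0 of 10 genes were higher at 6 h, beside 5.71%, and KLF11 alone at 24 h, beside 5.01%.

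KLF4, known as a reprogramming factor and as a brake on B cell proliferation, had signals of 111 without FK866, 37.0 after 6 h and 24.0 after 24 h. The signal was thus highest without FK866 and lowest at the later time, where it came close to the floor. It was 2.99-fold lower at 6 h, a log2 difference of -1.58, and 0.396% of all genes had a lower value. At 24 h it was 4.61-fold lower, a log2 difference of -2.21, and 0.244% of all genes lay lower. Among genes with a mean signal from 32 to under 128, the SD between probe sets of a gene was 0.45 at 6 h and 0.46 at 24 h. KLF4 has no such spread of its own, because its second probe set had signals of 6.4, 1.3 and 1.5, under the floor on all 3 arrays. The value rests on a probe set of the _s_at type, which can match more than 1 transcript. With a floor of 64, above both treated signals, its log2 difference was -0.79 at both times, short of 2-fold. In bulk RNA, less transcript per cell and fewer expressing cells cannot be told apart.

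KLF2, which keeps lymphocytes quiescent and is also known from myeloma cells and endothelium, lay above its untreated level at 6 h and below it at 24 h. Its signals were 755 without FK866, 939 after 6 h and 537 after 24 h. Against untreated cells it was higher by 0.32 on the log2 scale at 6 h and differed by -0.49 at 24 h, and at 24 h the signal was 1.75-fold lower than at 6 h. Its other probe set had signals of 42.9, 44.8 and 47.5, which order the arrays differently. Without _s_at and _x_at probe sets KLF2 differed by 0.15 at 24 h, so its lower 24 h value rests on 1 probe set.

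KLF6, an early-response activator that is found in most tissues, stayed near its untreated level. Its main probe set gave 1694 without FK866, 2004 after 6 h and 1665 after 24 h. The log2 differences of its 4 kept probe sets lay between -0.12 and 0.29 at 6 h and between -0.20 and 0.05 at 24 h. From 6 h to 24 h, 4 of 4 probe sets were lower, with log2 differences from -0.27 to -0.08. The fifth had signals of 15.7, 14.9 and 25.2 and did not pass the filter.

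KLF7, a relative of KLF6 studied mainly in neurons, was brightest at 6 h in 4 of 4 kept probe sets. The main one gave 95.0 without FK866, 109 after 6 h and 79.3 after 24 h. At 6 h the log2 differences ran from 0.20 to 1.05, and the highest came from an _x_at probe set, with signals of 28.0, 57.9 and 35.4. At 24 h they ran from -0.26 to 0.34, with 2 positive and 2 negative. The mean over probe sets was 0.59 at 6 h, against 0.20 for the main one. Of 8 members with several kept probe sets, KLF2 and KLF7 were higher in all of them at 6 h, as were 13.4% of 5967 such genes on the array, and 0 of 8 were at 24 h, beside 13.3%.

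**Figure D2:**
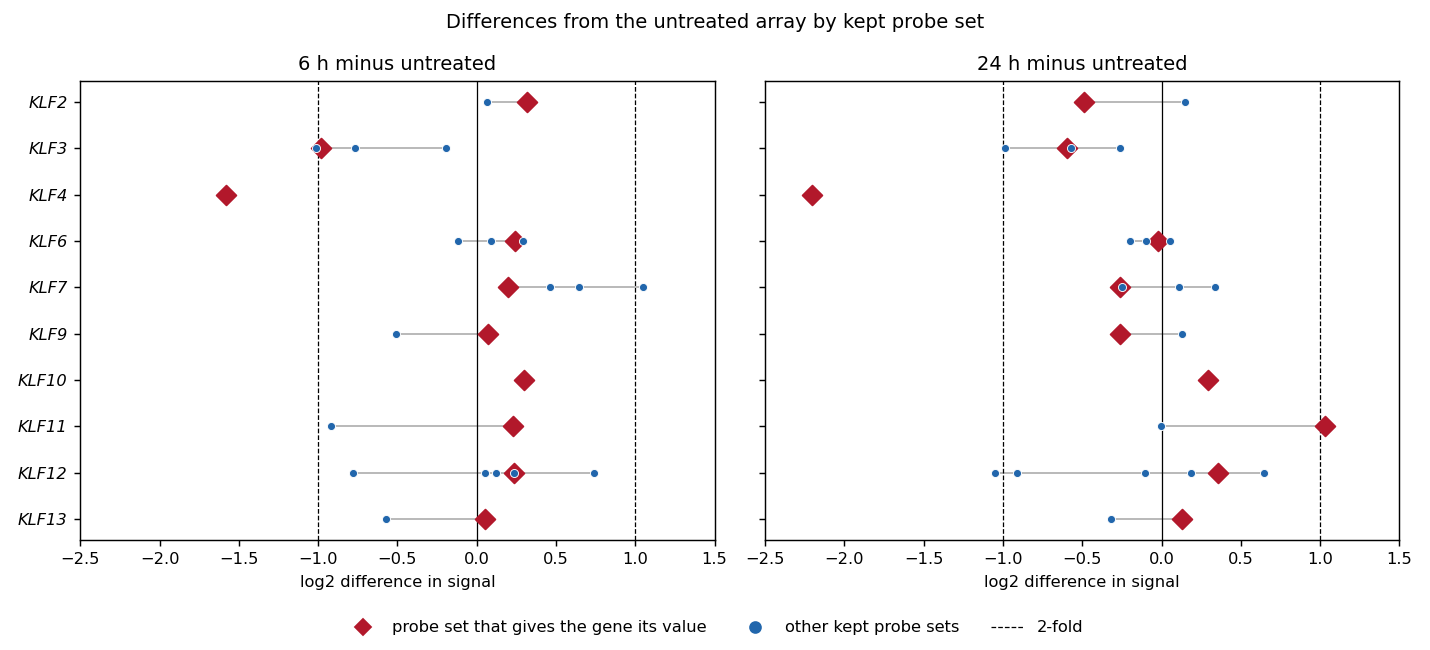
Log2 difference from the untreated array for each of the 28 kept KLF probe sets, at 6 h (left) and 24 h (right). Diamonds are the probe sets that give the gene its value, circles the others and dashed lines mark 2-fold; KLF3 lies below 0 with all 4 probe sets at both times, whereas KLF12 spreads from -1.05 to 0.64 at 24 h.

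KLF3, a CTBP-dependent repressor that takes part in B cell development, was lower in every kept probe set at both times. The main probe set gave 636 without FK866, 322 after 6 h and 420.5 after 24 h. The second gave 137, 68.2 and 69.4, the third 63.6, 55.5 and 53.1, and the fourth 72.9, 42.9 and 49.0. In each of them the untreated array was the brightest. By its main probe set KLF3 was 1.97-fold lower at 6 h, just short of 2-fold, and 1.51-fold lower at 24 h.

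Over the 4 probe sets the KLF3 log2 differences ran from -1.01 to -0.20 at 6 h and from -0.99 to -0.26 at 24 h. KLF3 was the only 1 of 8 members with several kept probe sets to be lower in all of them. Of the 5967 such genes on the array, 41.1% were lower in all at 6 h and 44.7% at 24 h, so this sign alone does not set KLF3 apart. Its main value was lower than that of most genes, with 3.52% of all genes below it at 6 h and 13.5% at 24 h. The 24 h signal was 1.31-fold above that at 6 h by the main probe set, and over the 4 probe sets this difference lay between -0.06 and 0.38 on the log2 scale.

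KLF12, the other CTBP-binding repressor among the 10 genes, gave values that depended on the probe set. Its main probe set was brighter on each later array, with 359 before treatment, 423 after 6 h and 459.6 after 24 h. The next gave 164, 95.3 and 79.1, which is 2.07-fold lower at 24 h. At 24 h, 3 of the 6 kept probe sets were higher and 3 lower, and the mean over them was -0.15 against 0.36 for the main one. No single direction can be given for KLF12 at 24 h. The other 2 of its 8 probe sets were below the filter.

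KLF11, also known as TIEG2, a repressor induced early by TGF-beta, was higher at 24 h by its main probe set. That probe set gave 141 without FK866, 165 after 6 h and 288 after 24 h. The 24 h array stood apart from the other two, at 2.04-fold the untreated signal, a log2 difference of 1.03, and 0.993% of all genes had a higher value. At 6 h the difference was 0.23.

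The second KLF11 probe set gave 30.3 without FK866, 9.3 after 6 h and 30.2 after 24 h. Its log2 difference at 24 h was -0.00, so it did not share the higher level, and at 6 h it was at least 1.89-fold lower, the signal lying under the floor. Against 6 h, both probe sets were higher at 24 h, the main one by 0.80 on the log2 scale and the second by at least 0.92. With the mean over probe sets KLF11 differed by 0.51 at 24 h, and with log2(signal + 32) by 0.89, neither reaching 2-fold.

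KLF10, or TIEG1, the TGF-beta-inducible relative of KLF11, has 1 probe set. It gave 657 without FK866, 806 after 6 h and 805 after 24 h, so both treated arrays were alike and 1.23-fold above the untreated one. That log2 difference, 0.30 at 6 h and 0.29 at 24 h, lies under the SD between probe sets. KLF9, a glucocorticoid-induced factor, gave 87.7, 92.0 and 73.1 by its main probe set and 49.0, 34.5 and 53.6 by its second. The order of the arrays was opposite in these 2 probe sets, and the other 3 were under the floor on all arrays.

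KLF13, which drives the chemokine gene CCL5 in T cells, gave 2219 without FK866, 2296 after 6 h and 2428 after 24 h. These signals lay within 1.09-fold of each other. Its second probe set gave 272 (untreated), 182.5 (6 h) and 218 (24 h), with log2 differences of -0.57 and -0.32. Its other 2 probe sets were under the floor on all arrays.

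**Figure D3:**
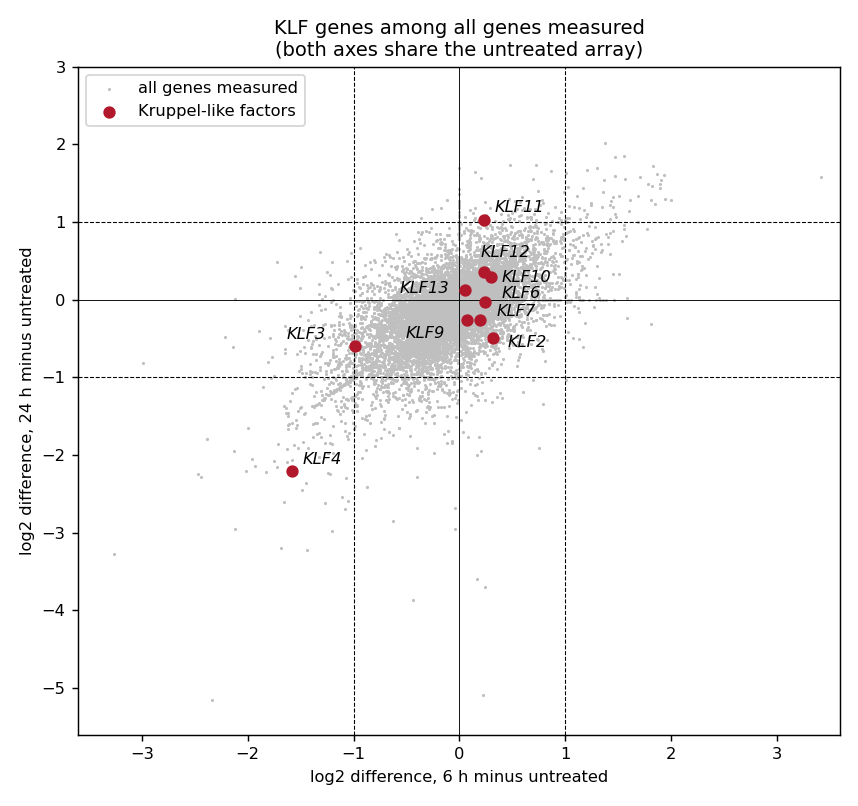
Log2 difference from untreated cells at 6 h (horizontal) and 24 h (vertical) for all 11883 genes (grey) and the 10 KLF genes (red); dashed lines mark 2-fold. KLF4 lies at -1.58 and -2.21, KLF11 at 0.23 and 1.03, and the other 8 within 2-fold at both times; both axes share the untreated array.

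As a group, the KLF genes had no placement among all genes that held for every summary of their probe sets. By the main probe sets, 8 of 10 lay above the median gene at 6 h and 5 of 10 at 24 h, with group medians of 0.21 and -0.14 against -0.10 and -0.13 for all genes. By the mean over probe sets, 5 of 10 lay above it at 6 h and 7 of 10 at 24 h, with group medians of -0.06 and -0.08 against -0.13 and -0.15 for all genes. KLF3 and KLF4 lay below the median gene at both times by either summary. The sign of the group median at 24 h also depended on the scaling, being 0.05 after quantile normalization and 0.11 after centring on array medians, and KLF6 likewise turned from -0.03 to 0.15 and 0.23.

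Between the treated arrays, 0 of 10 genes were at least 2-fold lower, beside 1.84% of all genes, and 0 of 10 at least 2-fold higher, beside 1.09%. At 1.5-fold, KLF2 and KLF4 were lower at 24 h than at 6 h, beside 7.91% of all genes, and KLF11 was higher, beside 5.28%. KLF2 differed by -0.81, KLF4 by -0.62 and KLF11 by 0.80 on the log2 scale. Of the 8 genes with several kept probe sets, KLF6 and KLF7 were lower in all of them, beside 28.4% of such genes, and KLF11 and KLF13 higher in all, beside 20.1%. Among the other 7 genes the main difference lay between -0.46 for KLF7 and 0.38 for KLF3.

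The genes nearest to KLF4 and KLF11 in their pair of log2 differences were sought among the 5530 brighter genes (mean log2 value of 8 or more). KLF4 and KLF11 lay below this level, with geometric mean signals of 46.2 and 189. Genes as dim as these 2 members were therefore not candidates. Likeness was the Euclidean distance over the 6 h and 24 h differences, which is 2 values from 3 arrays. Nearest to KLF4 were the mannosidase MAN1C1 at a distance of 0.26, with signals of 1349, 482 and 247, the integrin subunit ITGB8 at 0.36 and the sodium channel subunit SCNN1G at 0.38. Nearest to KLF11 were JAKMIP2 at 0.08, the plasma cell factor IRF4 at 0.11, with signals of 1698, 2029.6 and 3226, and SNAPC3 at 0.15. This likeness holds for main probe sets only. The second KLF11 probe set was at least 1.89-fold lower at 6 h and differed by -0.00 at 24 h. The 2 kept IRF4 probe sets ran from -0.21 to 0.26 at 6 h. A distance of up to 0.25 was met by 0 of these brighter genes for KLF4 and by 10 for KLF11.

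Other members of the KLF and SP families were mostly dim or close to their untreated level. Of 16 listed genes, 7 were measured, and their median differences were -0.01 at 6 h and -0.19 at 24 h. By the main probe sets KLF5, a proliferation-associated activator, was the only one past 2-fold. It was 2.35-fold lower at 6 h (70.1 to 29.8), with a signal of 50.3 at 24 h. At 6 h, 1 of 7 was thus at least 2-fold lower, beside 3.32% of all genes, and 0 higher, beside 1.44%. At 24 h, 0 of 7 were lower, beside 4.17%, and 0 higher, beside 1.14%. KLF15, a metabolic regulator induced by glucocorticoids, differed by 0.65 and 0.35, SP4 by 0.24 at 6 h and KLF16 by 0.25 at 24 h. The 2 kept SP4 probe sets disagreed in size at 6 h, at 0.24 for the main one and 1.04 for the other. SP3, which competes with SP1 for GC boxes, differed by -0.25 at 6 h, where its 3 probe sets ran from -1.48 to -0.17, and SP2 by -0.39 at 24 h. KLF1, KLF8, KLF14, KLF17, SP5, SP6, SP7 and SP8 did not pass the filter, and SP9 had 0 probe sets with 1 symbol.

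Genes that act upstream of KLF transcription had a median difference of -0.26 at 6 h and -0.30 at 24 h over 15 of 16 measured, and 10 and 11 of them lay below the median gene. Of these, 0 were at least 2-fold lower at either time, beside 3.32% of all genes at 6 h and 4.17% at 24 h. At least 2-fold higher were 1 at 6 h, beside 1.44%, and 0 at 24 h, beside 1.14%. The gene past 2-fold was TGFBR2, the ligand-binding TGF-beta receptor, at 2.19-fold (226 to 494) at 6 h, with a signal of 393 at 24 h. TGFBR1, the signalling partner of that receptor, was 1.98-fold lower at 6 h (620.1 to 312) and 1.92-fold lower at 24 h. NR3C1, the glucocorticoid receptor, which induces KLF9, was 1.84-fold lower at 6 h, and its 5 probe sets gave log2 differences from -1.40 to -0.51. MAPK7, the ERK5 kinase that drives KLF2 and KLF4 through MEF2 factors, differed by -0.78 at 24 h. MEF2A differed by 0.26 at 6 h and FOXO3 by -0.04 at 24 h.

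Among cofactors and proteins that control KLF turnover, 14 of 15 were measured, with medians of -0.01 at 6 h and -0.25 at 24 h. By the main probe sets, 0 were at least 2-fold lower at 6 h, beside 3.32% of all genes, and 1 higher, beside 1.44%. At 24 h, 1 was lower, beside 4.17%, and 0 higher, beside 1.14%. CTBP2, a corepressor partner of KLF3 and KLF12, was 2.28-fold higher at 6 h from a dim signal (33.8 to 77.2), and at 24 h its 2 kept probe sets lay at -0.82 and 0.66. FBXO32, a ubiquitin ligase subunit that can mark KLF4 for degradation, was 13.0-fold lower at 24 h (988 to 76.1) by its main probe set, and its 6 probe sets ranged from -4.25 to -2.44 on the log2 scale. At 6 h they disagreed, running from -2.51 to 0.24, with the main one at 0.24. SIN3A, the partner of KLF9, KLF10, KLF11 and KLF13, differed by -0.86 at 6 h. Its 3 kept probe sets ran from -0.86 to -0.13 at 6 h and from -1.39 to -0.24 at 24 h. The acetyltransferase EP300 differed by -0.51 and -0.70, and its relative KAT2B by 0.37 at 6 h. WWP1, another ubiquitin ligase, differed by 0.14 at 24 h.

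Genes reported as KLF targets had medians of -0.32 at 6 h and -0.19 at 24 h over 12 of 20 measured. Of these, 1 was at least 2-fold lower at each time, beside 3.32% of all genes at 6 h and 4.17% at 24 h. IL7R, the interleukin 7 receptor, was 2.54-fold lower at 6 h (52.8 to 20.8) and at least 3.30-fold lower at 24 h, where its signal of 6.8 lay under the floor. CCL5, a KLF13 target, differed by -0.96 at 24 h with 3 of 3 probe sets between -0.96 and -0.77. TXNRD2, which KLF9 represses, differed by -0.91 at 6 h and -0.11 at 24 h. IRF4, linked to KLF2 in myeloma cells, was 1.90-fold higher at 24 h, NOS3 differed by 0.25 at that time and TFAP2A, repressed by KLF12, by 0.05 at 6 h. S1PR1 and CCR7, the trafficking receptors of lymphocytes tied to KLF2, did not pass the filter. ITGB7, an integrin subunit tied to KLF2 in lymphocytes, differed by -0.10 and -0.07.

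**Figure D4:**
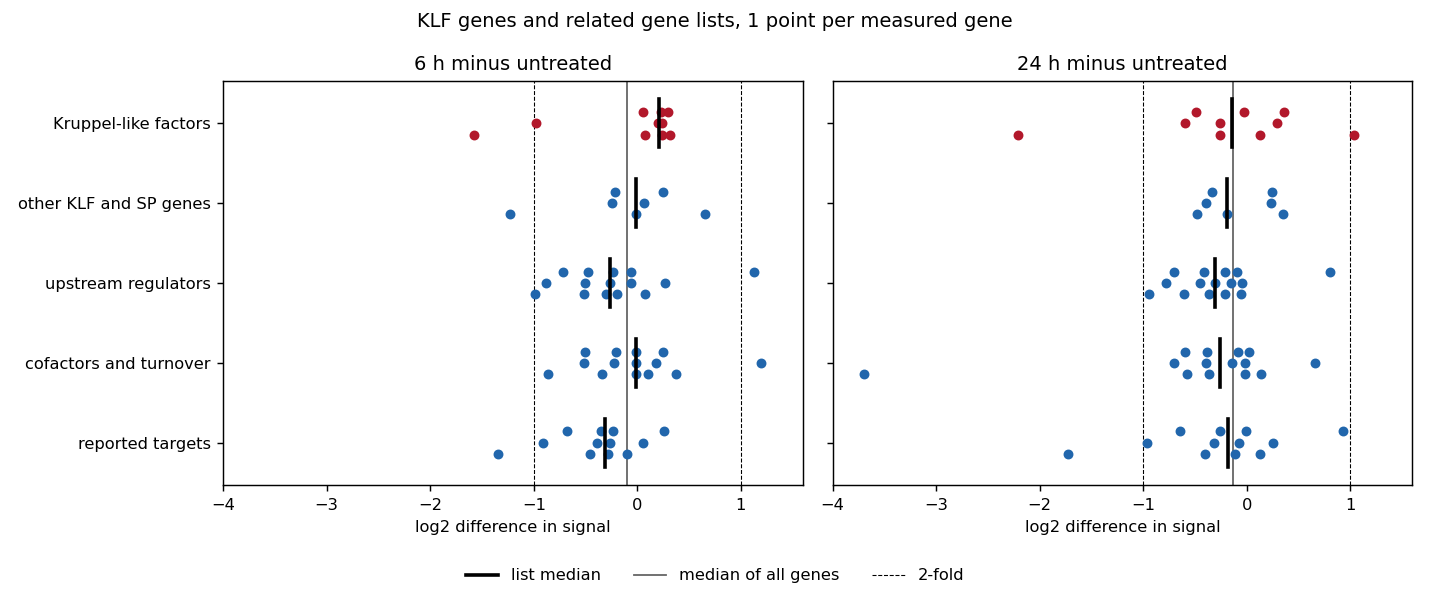
Log2 differences from untreated cells at 6 h (left) and 24 h (right) for the KLF genes (red) and the measured genes of the related lists (blue), 1 point per gene. Black bars are list medians, the grey line is the median of all genes (-0.10 and -0.13) and dashed lines mark 2-fold; the lowest point at 24 h is FBXO32 at -3.70.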

How the data were processed

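Transcript levels in 3 samples of MM1S cells were measured on Affymetrix arrays, from 1 µg of total RNA per the labels' protocols. The authors deposited 1 linear intensity per probe set and array; the summary of probes, the background correction and the scaling are not given in the sources used here. Array medians were 20.5, 17.4 and 17.2. GEO's platform annotation (2016) names a single gene for 41097 probe sets, more than one for 1801 and no gene for 11777. RefSeq holds the gene identifier of 41043 of the first kind, and 0 symbols changed. The table names no genome build, so genes have no coordinates; promoter windows are RefSeq's.

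Controls (62) were left out of the filter, the floor was 16, and 22601 kept probe sets had 1 symbol. Folds are 2 to the power of the log2 difference. All KLF genes are named. Other lists give members past 2-fold and the 2 highest and lowest at each time; ITGB7, S1PR1, CCR7 and genes below the filter were added after their values were seen. The members and lists were chosen with earlier results of these data known. The procedure was tested on simulated data without noise and with set changes. That checks the arithmetic and not probe error or variation between cultures. Computation was done in Python 3.11.15 (pandas 2.3.3, numpy 2.4.6), with scipy 1.17.1 for ranks and matplotlib 3.10.9 for plots.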

Additional observations from a re-analysis of the deposited data

Results flagged for a closer look

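For 4 KLF genes the differences from untreated cells had opposite signs at 6 h and 24 h by the main probe set, positive first and negative later. The 24 h array minus the 6 h array was -0.81 for KLF2, -0.27 for KLF6, -0.46 for KLF7 and -0.33 for KLF9 on the log2 scale. With 1 array per time the difference between times was not tested, and both times share the untreated array. The 24 h difference of KLF6 was -0.03 and turned positive under other scalings. The other kept KLF2 probe set was positive at both times (0.06 and 0.15), and the second KLF9 probe set had the opposite order. Of the 4 kept KLF7 probe sets, 2 were positive at 24 h, and after centring on array medians KLF7 differed by -0.01 there.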

How the results depend on the processing

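No paired analysis was possible because each group has 1 array. Quantile normalization, centring on array medians and no filter left KLF4 as the 1 gene at least 2-fold lower at 6 h and at 24 h and KLF11 as the 1 at least 2-fold higher at 24 h. Dropping the filter could not change this, because the brightest probe set of each member was already kept. After quantile normalization, 1.75% of the genes measured under that setting were lower at 6 h, 2.22% lower at 24 h and 2.42% higher at 24 h. These shares were 1.53%, 2.15% and 2.53% after centring, and 2%, 2.5% and 0.683% with no filter. The count of genes lower was 0 at both times without _s_at and _x_at probe sets and with the filter moved to the 75th percentile, because KLF4 then has no value, and with a floor of 64, which lies above its treated signals. Without _s_at and _x_at probe sets, 4.22% of the measured genes were lower at 6 h and 4.61% at 24 h. The shares were 1.24% and 1.74% with the stricter filter, and 0.582% and 0.814% with the floor of 64. With that floor the filter removed 0 genes, so its shares are over 19775 genes, as with no filter. The stricter filter left 7485, so these shares cannot be compared directly. The count of genes higher at 24 h was 0 with log2(signal + 32), beside 0.21% of the measured genes, and with the mean over probe sets, beside 0.833%. At 1.5-fold the counts lower were 2 at 6 h, beside 11.3% of all genes, 2 at 24 h, beside 14.1%, and 2 between the treated arrays, beside 7.91%. Between the treated arrays 1 was higher, beside 5.28%. Of 219 single-gene values under the alternatives, 96 equal the reported value because the setting leaves the main probe set and its signals as they are. Of the other 123, 109 moved by less than the pooled SD between probe sets and 14 by more. The values past 2-fold were those of KLF4 at both times and KLF11 at 24 h. Of these, 0 changed sign under the settings that gave them a value. Smaller values did change sign. With the mean over probe sets, KLF11 turned from 0.23 to -0.35 at 6 h and KLF12 from 0.36 to -0.15 at 24 h. KLF4 at 24 h ranged down in size to -0.79 with the floor of 64. Dim probe sets limit KLF4, KLF7 and KLF9, which the stricter filter removes.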

Other observations

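KLF3-AS1, a transcript antisense to KLF3 by its name, had signals of 20.2 without FK866, 35.6 after 6 h and 17.7 after 24 h by its 1 kept probe set, of the _x_at type, which can match other transcripts. Its second probe set was under the floor on all 3 arrays. KLF9-DT, named as divergent from KLF9, had signals of 21.2, 3.4 and 16.8 and did not pass the filter.

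Among the RefSeq windows not printed, the GC box occurred 3 times in that of KLF13, 2 times in that of KLF6 and 0 times in that of KLF9. The first KLF11 window held it 2 times, with 0 full cAMP response elements. KLF12 has 4 windows, and 2 of them held the CACCC box 5 times each. The KLF13 window held the short form of the cAMP response element 1 time.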
